A study of Mus musculus with 6 samples.

Results

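The transcripts of 10 antioxidant enzymes were followed in mouse hearts with and without Cfp1 in cardiomyocytes. The genes were taken by name from the deposited table of 26881 genes and are Sod1, Sod2, Sod3, Cat, Gpx1, Gpx3, Gpx4, Txnrd1, Hmox1 and Nqo1, all of which were found. Cfp1, encoded by Cxxc1, belongs to the Setd1 complexes, which methylate lysine 4 of histone H3, and binds unmethylated CpG dinucleotides. Total RNA of 3 Cfp1-cKO and 3 WT hearts was sequenced at 2 weeks of age. Cfp1-cKO mice carried Myh6-Cre and 2 floxed Cfp1 alleles on a C57BL/6 background, with GEO's label giving the genotype as CXXC1 null. WT mice, labelled Wild-type, served as controls. The Myh6 promoter drives Cre in cardiomyocytes, so that the other cell types of the heart keep Cfp1. Whether each sample came from 1 heart or from several is not given in the sources used here, and p-values therefore measure only the spread between these samples.

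Superoxide, which leaks from the respiratory chain and is made by NADPH oxidases, is turned into hydrogen peroxide by superoxide dismutases. Hydrogen peroxide is then removed by catalase in peroxisomes and by glutathione peroxidases and peroxiredoxins, which draw their electrons from glutathione and thioredoxin. The transcription factor Nrf2, encoded by Nfe2l2 and held back by Keap1, raises the transcription of many genes of this defence, with Nqo1, Hmox1 and Txnrd1 among its best known targets.

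Values are FPKM, fragments per kilobase of gene model and relative to the fragments of the whole library, so that levels of different genes can be compared. Library totals worked back from the FPKM ranged from 16672652 to 19481847 fragments in Cfp1-cKO and from 18007474 to 22700811 fragments in WT hearts. Genotypes were compared with limma on log2(FPKM + 1) over the 11017 genes that averaged at least 1 FPKM, and all 10 enzymes passed this filter. On this scale the changes of low genes are understated. A gene was called where its adjusted p was below 0.05 and its log2 fold change above 0.5 in size. Over all tested genes the median log2 fold change was 0.35, so fold changes of the 10 enzymes are also given after median-of-ratios scaling, which brings that median to 0.00. For related genes the text says whether the call held after scaling. Cxxc1 had 8.02, 9.94 and 8.74 FPKM in Cfp1-cKO hearts, against 9.66, 12.9 and 10.03 FPKM in WT hearts, and was not called (log2 fold change -0.26, adjusted p = 0.249 in limma). After scaling its value was -0.66 (adjusted p = 0.0571 in limma), with all 3 Cfp1-cKO libraries below all WT libraries. The deleted part of the gene is not named in the sources used here, so that its FPKM, taken over the whole gene and all cells, does not check the deletion. The extraction text among the labels speaks of retinas, but 6 retina markers found in the table summed to at most 0.166 FPKM in any library.

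Markers of other tissues and cell types differed between the genotypes. For comparison, 21.1% of all tested genes were called higher and 1.68% lower, or 3.73% and 3.25% after scaling. All 14 listed markers of lung epithelium were higher in Cfp1-cKO hearts, with and without scaling, and summed to 3376 to 5111 FPKM there, against 0.374 to 4.01 FPKM in WT hearts. At these WT sums nearly all of them passed the filter only through the Cfp1-cKO libraries, where they are high. The share called in this list is therefore not comparable with that of all tested genes. Lamp3, Cldn18 and Nkx2-1 were at 0 in all WT libraries, and Sftpc, surfactant protein C, had 1202, 2163 and 3232 FPKM in Cfp1-cKO hearts. Of 9 tested macrophage markers 4 were higher, and 2 after scaling. The list summed to 501 to 843 FPKM in Cfp1-cKO hearts, against 97.6 to 107 FPKM in WT hearts. Lyz2, which alveolar type II cells of the lung also make, carried most of the Cfp1-cKO sum, and without it the list was at 72.1 to 114 FPKM in Cfp1-cKO hearts, against 48.6 to 64.4 FPKM in WT hearts. Of 10 cardiomyocyte markers 5 were lower, with and without scaling. They summed to 5745 to 7600 FPKM in Cfp1-cKO hearts and to 8445 to 10993 FPKM in WT hearts. Of 5 atrial markers 3 were lower and 1 higher, and after scaling 3 were lower and none higher. Fibroblast markers summed to 415 to 614 FPKM in Cfp1-cKO hearts, against 258 to 339 FPKM in WT hearts. Adipocyte markers summed to 37.2 to 53.0 FPKM in Cfp1-cKO hearts, against 13.4 to 29.7 FPKM in WT hearts. The sums of endothelial and smooth muscle markers overlapped between genotypes. In each of these 4 lists 1 gene was called higher, of 7, 2, 6 and 5 tested, and none was called after scaling. All marker sums are of FPKM as deposited. Scaling divided Cfp1-cKO libraries by 1.06 to 1.23 and WT libraries by 0.82 to 0.91. With these factors the macrophage sums without Lyz2 and the fibroblast and adipocyte sums overlap between genotypes. Lung, macrophages and fibroblasts also express several of the enzymes described here. The part of these cells in the differences below was not tested, and fewer cells of a type and less RNA per cell cannot be told apart in these samples.

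Of the 10 enzymes 4 were called, all of them higher in Cfp1-cKO hearts, namely Sod3, Nqo1, Gpx3 and Gpx1. This compares with a background in which 21.1% of all tested genes were called higher and 22.8% in either direction. None of the 10 was called lower, where 1.68% of all tested genes were. The genotypes did not overlap for 8 enzymes, 7 of them higher and 1 lower, whereas 46.4% of all tested genes lay wholly higher and 3.23% wholly lower. After scaling, Sod3 was the only enzyme called higher (3.73% of all tested genes) and Sod2 the only one called lower (3.25% of all tested genes), with 6.98% of all tested genes called in either direction. Scaling also left fewer enzymes without overlap, 3 higher and 1 lower, where 16.7% and 14.9% of all tested genes lay wholly higher and wholly lower.

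**Figure D1:**
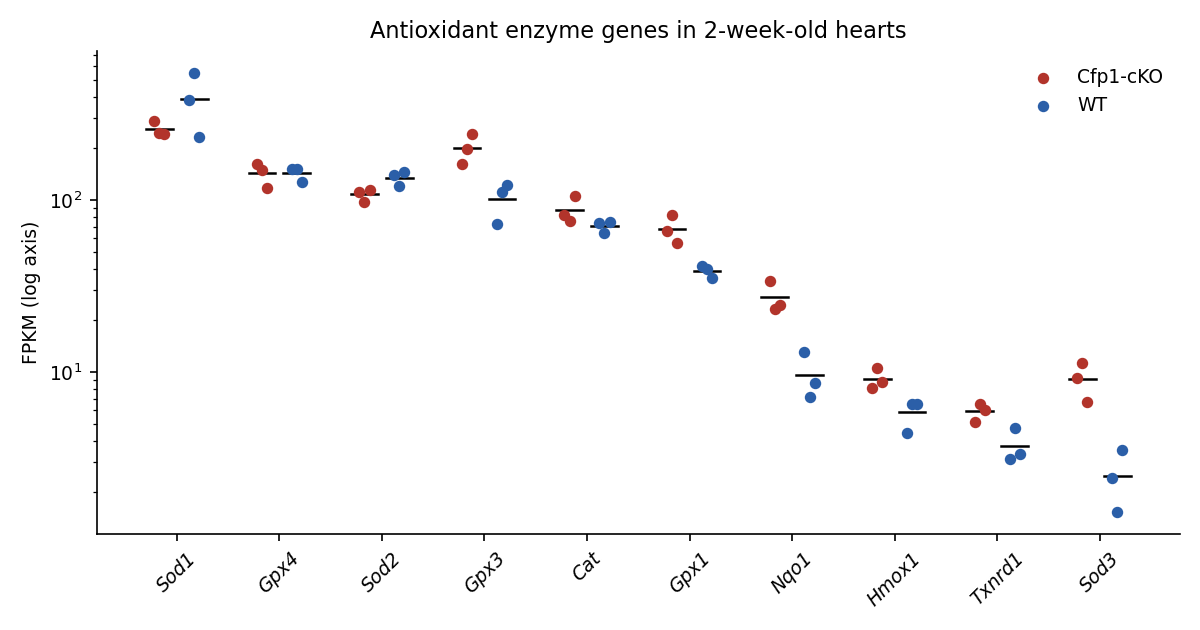
FPKM (vertical, log axis) of the 10 antioxidant enzymes in 3 Cfp1-cKO (red, left) and 3 WT (blue, right) heart libraries, 1 point per library, with black lines at the means and genes ordered by their WT mean. Sod3 and Nqo1 lie wholly higher in Cfp1-cKO hearts, Sod2 lies wholly lower, and the WT points of Sod1 spread between 234 and 550 FPKM.

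The order of the enzymes by level was much alike in both genotypes, with Sod1 at the top. In Cfp1-cKO hearts the means were 259 FPKM for Sod1, 201 for Gpx3, 143 for Gpx4, 108 for Sod2, 87.4 for Cat, 68.3 for Gpx1, 27.2 for Nqo1, 9.13 for Hmox1, 9.06 for Sod3 and 5.90 for Txnrd1. In WT hearts they were 389 FPKM for Sod1, 144 for Gpx4, 135 for Sod2, 102 for Gpx3, 70.9 for Cat, 38.8 for Gpx1, 9.62 for Nqo1, 5.83 for Hmox1, 3.73 for Txnrd1 and 2.49 for Sod3. Gpx3 thus stood above Gpx4 and Sod2 in Cfp1-cKO and below both in WT hearts, and Sod3 was last in WT hearts alone. Several neighbours in this order overlapped between libraries. Among Cfp1-cKO libraries these were Sod1 with Gpx3, Sod2 with Cat, Cat with Gpx1 and Hmox1 with Sod3. Among WT libraries these were Gpx4 with Sod2, Sod2 with Gpx3, Gpx3 with Cat, Hmox1 with Txnrd1 and Txnrd1 with Sod3.

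Of the 3 superoxide dismutases only Sod3 was called without scaling, and Sod1 and Sod2 had values below 0 on the log2 scale. Sod1, the copper and zinc enzyme of the cytosol (chr16:90220742-90226322, plus strand, GRCm38), had 288, 247 and 241 FPKM in Cfp1-cKO hearts, against 383, 550 and 234 FPKM in WT hearts. The WT values spread more widely than the Cfp1-cKO values, and WT replicate 3 lay below all 3 Cfp1-cKO libraries. Its log2 fold change was -0.51 (95% interval -1.16 to 0.15, adjusted p = 0.195 in limma) and, after scaling, -0.95 (adjusted p = 0.142 in limma). Without WT replicate 3 it was called lower, at -0.83 (adjusted p = 0.0275 in limma), and without WT replicate 2 it was at -0.21 (adjusted p = 0.485 in limma). The 3' end of Sod1 overlaps Scaf4 on the other strand, and the counting is not stated to use strand.

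Sod2, the manganese enzyme of the mitochondrial matrix (chr17:13007839-13018119, plus strand), had 112, 97.3 and 114 FPKM in Cfp1-cKO hearts, against 140, 120 and 145 FPKM in WT hearts. Every Cfp1-cKO library lay below every WT library. The log2 fold change of -0.32 did not pass the test (95% interval -0.67 to 0.02, adjusted p = 0.132 in limma). After scaling, Sod2 was at 79.8 to 105 FPKM in Cfp1-cKO hearts, against 147 to 165 FPKM in WT hearts, and was called lower (log2 fold change -0.76, adjusted p = 0.0381 in limma).

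Sod3, the secreted enzyme that binds to the extracellular matrix (chr5:52363791-52371418, plus strand), was called higher. It had 9.19, 11.3 and 6.73 FPKM in Cfp1-cKO hearts, from 453 to 703 fragments a library, against 2.42, 1.53 and 3.54 FPKM in WT hearts, from 108 to 238 fragments. The lowest Cfp1-cKO library lay above the highest WT library. Mean FPKM was 9.06 ± 2.28 in Cfp1-cKO and 2.49 ± 1.00 in WT hearts (SD, n = 3 each), a ratio of 3.63. The log2 fold change was 1.54, with a standard error of 0.25 (adjusted p = 0.00819 in limma), and 1.19 after scaling (adjusted p = 0.0313 in limma). Sod3 was the only one of the 10 enzymes called under all 17 alternatives.

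Summed FPKM of the 3 genes was 409, 355 and 362 in Cfp1-cKO hearts, against 526, 672 and 382 in WT hearts. The sums overlapped, with WT replicate 3 below Cfp1-cKO replicate 1, and Sod1 made up most of each. After scaling they did not overlap, at 292 to 386 FPKM in Cfp1-cKO and 421 to 822 FPKM in WT hearts. Sod3 held 2.24%, 3.17% and 1.86% of the sum in Cfp1-cKO hearts, against 0.46%, 0.23% and 0.92% in WT hearts. A ratio of 2 genes within a library does not depend on the scaling between libraries, so 7 such ratios were compared with two-sided exact permutation tests, for which 3 libraries against 3 allow no p below 0.10. The log2 ratio of Sod3 to Sod1 was higher by 2.42 in Cfp1-cKO hearts without overlap (exact permutation p = 0.10, adjusted over the 7 ratios 0.233). The log2 ratio of Sod2 to Sod1 differed by 0.18 with overlapping libraries (exact permutation p = 0.70, adjusted 0.817).

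**Figure D2:**
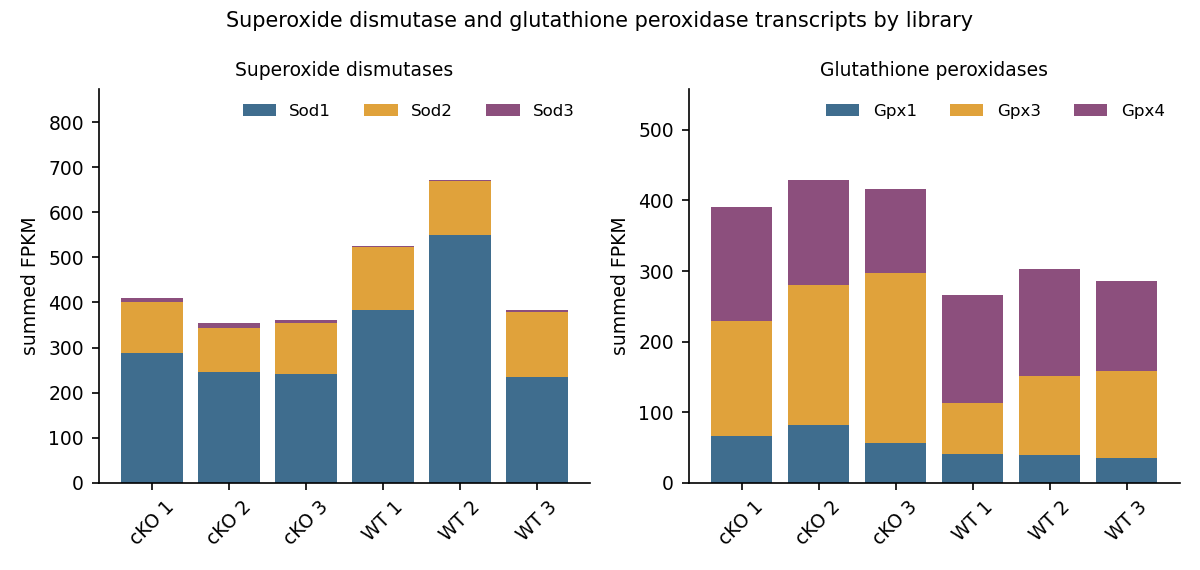
Summed FPKM (vertical, from 0) of superoxide dismutases (left) and of glutathione peroxidases (right) in each heart library, Cfp1-cKO on the left and WT on the right, split by gene. Superoxide dismutases sum to 355 to 409 FPKM in Cfp1-cKO and to 382 to 672 FPKM in WT libraries, and glutathione peroxidases to 391 to 429 FPKM in Cfp1-cKO and to 265 to 302 FPKM in WT libraries.

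Cat encodes catalase, which splits hydrogen peroxide into water and oxygen (chr2:103453849-103485160, minus strand). It had 81.7, 75.5 and 105 FPKM in Cfp1-cKO hearts, against 73.6, 64.1 and 75.0 FPKM in WT hearts. The groups were apart by less than 1 FPKM. Its log2 fold change was 0.29 (95% interval -0.10 to 0.68, adjusted p = 0.213 in limma), below the median of all genes, and it turned to -0.15 after scaling (adjusted p = 0.614 in limma). The log2 ratio of Cat to Sod1 was higher by 0.80 in Cfp1-cKO hearts, with overlap (exact permutation p = 0.30, adjusted 0.525).

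The glutathione peroxidases here and Txnrd1 are selenoproteins. Their messages carry a TGA codon inside the reading frame that is read as selenocysteine, the residue at the active site, where TGA otherwise ends translation. The 30 bases around this codon are shown from the GENCODE release 21 transcripts because the codon sets these 4 enzymes apart from the other 6, with the TGA in capitals.
Gpx1: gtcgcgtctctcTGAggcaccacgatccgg
Gpx3: gtagccagctacTGAggtctgacagaccaa
Gpx4: gtggcctcgcaaTGAggcaaaactgacgta
Txnrd1: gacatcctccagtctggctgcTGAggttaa
The codon is number 47 of 201 in Gpx1, number 73 of 226 in Gpx3, number 129 of 253 in the transcript Gpx4-201, and number 498 of 499 in Txnrd1, right before the last codon. In all 4 the next codon begins with GG. Of these 4 selenoprotein genes, Gpx1 and Gpx3 were called higher in Cfp1-cKO hearts, where 21.1% of all tested genes were. Gpx4 and Txnrd1 were not called, and after scaling none of the 4 was called.

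Gpx1, the glutathione peroxidase of cytosol and mitochondria (chr9:108338903-108340343, plus strand), had 66.5, 82.1 and 56.3 FPKM in Cfp1-cKO hearts, against 41.2, 39.8 and 35.3 FPKM in WT hearts. The WT libraries lay close together, and all 3 Cfp1-cKO libraries were above them. The log2 fold change was 0.79, with a standard error of 0.17 (adjusted p = 0.0203 in limma). It was 0.35 after scaling, with overlapping libraries (adjusted p = 0.307 in limma). Gpx1 also lost its call without Cfp1-cKO replicate 2 (adjusted p = 0.0813) or WT replicate 1 (adjusted p = 0.0586).

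Gpx3, the glutathione peroxidase of blood plasma and the extracellular space (chr11:54902453-54910377, plus strand), had 163, 198 and 241 FPKM in Cfp1-cKO hearts, against 72.2, 112 and 123 FPKM in WT hearts. Mean FPKM was 201 ± 39.4 in Cfp1-cKO and 102 ± 26.5 in WT hearts (SD, n = 3 each), a ratio of 1.97 without overlap. The log2 fold change was 0.98, with a standard error of 0.24 (adjusted p = 0.0249 in limma). After scaling the genotypes still did not overlap, at 153 to 197 FPKM in Cfp1-cKO and 85.1 to 136 FPKM in WT hearts, but the call was lost (0.54, adjusted p = 0.195 in limma). Without Cfp1-cKO replicate 2 (adjusted p = 0.0846), Cfp1-cKO replicate 3 (adjusted p = 0.0727) or WT replicate 1 (adjusted p = 0.0753), Gpx3 was not called either.

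Gpx4, which reduces lipid peroxides within membranes (chr10:80047166-80056439, plus strand), had 161, 149 and 118 FPKM in Cfp1-cKO hearts, against 152, 151 and 127 FPKM in WT hearts. The WT libraries lay within the range of the Cfp1-cKO libraries. The log2 fold change was -0.01 (95% interval -0.40 to 0.38, adjusted p = 0.956 in limma), and -0.46 after scaling (95% interval -0.96 to 0.05, adjusted p = 0.239 in limma). The annotation names a processed copy, Gpx4-ps2, which may share fragments with it.

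Together the 3 peroxidases summed to 391, 429 and 416 FPKM in Cfp1-cKO hearts, against 265, 302 and 285 FPKM in WT hearts. These did not overlap as deposited, with every Cfp1-cKO library higher, but after scaling they overlapped, at 339 to 368 FPKM in Cfp1-cKO and 313 to 370.1 FPKM in WT hearts. Gpx4 held 41.3%, 34.8% and 28.4% of the sum in Cfp1-cKO hearts, against 57.3%, 49.9% and 44.7% in WT hearts. There were 1.82 to 2.43 times as many FPKM of Gpx4 as of Gpx1 in Cfp1-cKO libraries, against 3.61 to 3.79 times in WT libraries. This log2 ratio was lower by 0.82 in Cfp1-cKO hearts (difference -0.82, exact permutation p = 0.10, adjusted 0.233). Gpx3 to Gpx1 differed by 0.19 with overlap (exact permutation p = 0.70, adjusted 0.817).

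Txnrd1 encodes the thioredoxin reductase of the cytosol, which keeps thioredoxin reduced (chr10:82833951-82897712, plus strand). It had 5.14, 6.57 and 6.01 FPKM in Cfp1-cKO hearts, against 3.11, 4.74 and 3.33 FPKM in WT hearts. All 3 Cfp1-cKO libraries were above all WT libraries, and the log2 fold change of 0.56 narrowly missed the threshold (95% interval 0.15 to 0.97, adjusted p = 0.0535 in limma). After scaling it was 0.19 (adjusted p = 0.531 in limma). It was called without WT replicate 2 (0.70, adjusted p = 0.0293 in limma). Its gene overlaps Eid3 on the same strand, which may share fragments with it. Txnrd2, the mitochondrial reductase, with which its ratio was taken, had 7.27, 6.17 and 6.29 FPKM in Cfp1-cKO hearts, against 2.47, 1.52 and 2.65 FPKM in WT hearts (limma log2 fold change 1.25, adjusted p = 0.0053). Txnrd2 held its call after scaling (0.91, adjusted p = 0.0262 in limma). Within libraries, the ratio of Txnrd2 to Txnrd1 was 0.94 to 1.41 in Cfp1-cKO and 0.32 to 0.80 in WT hearts, a log2 difference of 0.93 (exact permutation p = 0.10, adjusted 0.233).

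Nqo1, the quinone reductase that uses NADH or NADPH (chr8:107388225-107403206, minus strand), was called higher. It had 33.7, 23.2 and 24.6 FPKM in Cfp1-cKO hearts, against 13.1, 7.14 and 8.65 FPKM in WT hearts. Replicate 1 was the highest library of each genotype, and the groups lay well apart. Mean FPKM was 27.2 ± 5.72 in Cfp1-cKO and 9.62 ± 3.09 in WT hearts (SD, n = 3 each), a ratio of 2.83. The log2 fold change was 1.43, with a standard error of 0.24 (adjusted p = 0.00839 in limma). After scaling the groups still did not overlap, but the value of 1.01 missed the threshold (adjusted p = 0.0626 in limma), the only one of 17 alternatives under which Nqo1 was not called.

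Hmox1, the inducible haem oxygenase that opens the haem ring and frees its iron (chr8:75093621-75100589, plus strand), had 8.09, 10.6 and 8.75 FPKM in Cfp1-cKO hearts, against 4.45, 6.54 and 6.50 FPKM in WT hearts. The groups did not overlap, yet the log2 fold change of 0.58 missed the threshold on adjusted p (95% interval 0.16 to 1.00, adjusted p = 0.0521 in limma) and was 0.19 after scaling (adjusted p = 0.528 in limma). Hmox2, the constitutive haem oxygenase, had 21.9, 17.8 and 19.7 FPKM in Cfp1-cKO hearts, against 13.2, 9.55 and 14.0 FPKM in WT hearts (limma log2 fold change 0.66, adjusted p = 0.0342), and was not called after scaling (0.24, adjusted p = 0.441 in limma). The ratio of Hmox1 to Hmox2 hardly differed between genotypes (log2 difference -0.05, exact permutation p = 0.90, adjusted 0.90).

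**Figure D3:**
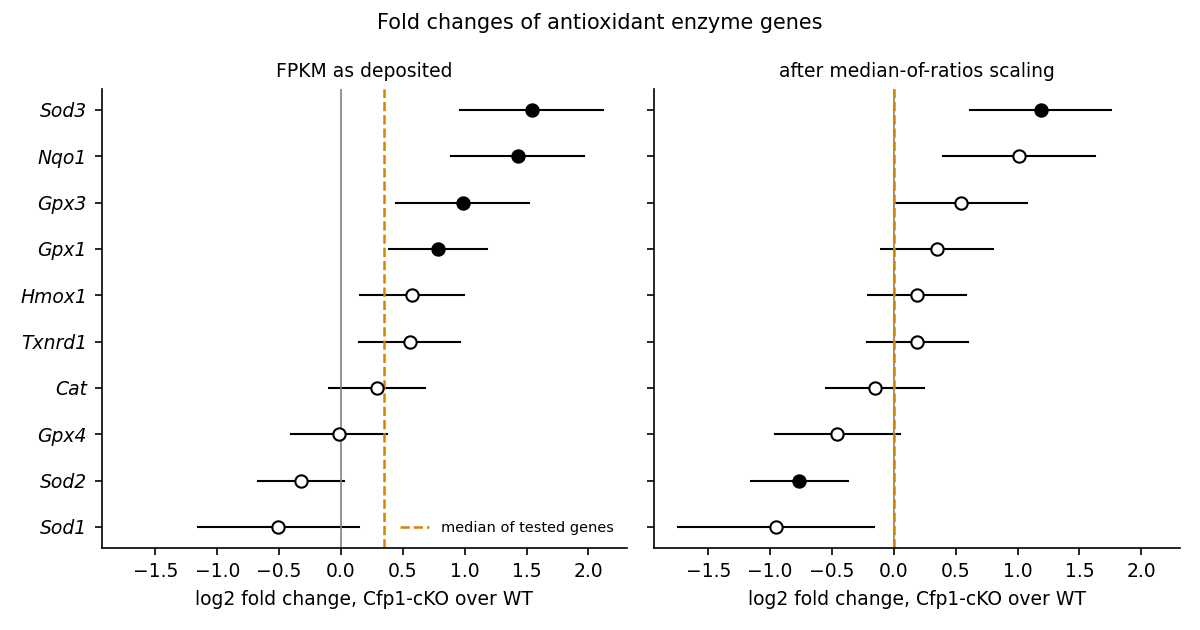
Log2 fold change of Cfp1-cKO over WT hearts (horizontal) with its 95% interval in limma for the 10 antioxidant enzymes, for FPKM as deposited (left) and after median-of-ratios scaling (right). Filled points were called, and the dashed line is the median of all tested genes, at 0.35 as deposited and at 0.00 after scaling, and Cat lies at 0.29 on the left and at -0.15 on the right.

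Because Cfp1 binds unmethylated CpG, the 250 bases before the start of each gene were read from RefSeq (GRCm38.p6), where 8 of the 10 enzymes were matched, Sod3 and Hmox1 being the others. The RefSeq starts of Gpx1 and Gpx3 lie within the gene as the deposited table gives it. At the first listed start, CpG numbered 26 for Sod1, 15 for Sod2, 11 for Gpx3, 9 for Cat, 7 for Gpx1, 5 for Nqo1, 2 for Gpx4 and 2 for Txnrd1. The other starts of Gpx4 held 21 or 24 CpG and those of Txnrd1 held 19 and 10. The median over 8188 tested genes was 16. At the first listed start 7 of the 8 enzymes lay below that median, called or not, and Sod1 lay above it. Sod1 and Nqo1 are shown, as the enzyme with most CpG and the called enzyme with fewest, in the 220 bases that end 30 bases before the start, with each CpG in capitals. The Sod1 stretch lies at chr16:90220512-90220731 on the plus strand and holds 23 CpG, and that of Nqo1 at chr8:107403236-107403455 on the minus strand and holds 4.
Sod1: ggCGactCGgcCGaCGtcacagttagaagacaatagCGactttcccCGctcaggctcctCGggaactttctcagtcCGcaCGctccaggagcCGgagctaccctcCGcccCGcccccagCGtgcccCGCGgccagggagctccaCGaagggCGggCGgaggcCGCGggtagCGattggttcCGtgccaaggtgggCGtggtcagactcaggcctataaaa
Nqo1: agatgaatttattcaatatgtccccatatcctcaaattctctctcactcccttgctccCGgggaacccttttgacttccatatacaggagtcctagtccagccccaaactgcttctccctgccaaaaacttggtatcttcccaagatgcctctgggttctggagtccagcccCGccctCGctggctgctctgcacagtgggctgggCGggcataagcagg
The core of the antioxidant response element to which Nrf2 binds, TGACNNNGC on either strand, shares its first bases with the AP-1 motif. It occurred in 12.3% of the first-start windows of tested genes, and among the enzymes in that of Sod1 and in the window of a further start of Txnrd1. Only these 250 bases were searched, and Sod3 and Hmox1 had no window. Whether an enzyme has this element further from its start was therefore not examined.

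Genes around these enzymes were counted over 10 lists of the antioxidant system, which leave out the 10 enzymes themselves. Of 108 tested genes 27 were called higher and 4 lower, or 25% and 3.70%, where 21.1% and 1.68% of all tested genes were called. Their median log2 fold change was 0.32, against 0.35 for all tested genes. After scaling, 4 were called higher and 10 lower, or 3.70% and 9.26%, where 3.73% and 3.25% of all tested genes were called. The genes higher both ways were Txnrd2, Akr1b8, Hp and Dio2, which were called under every alternative in which they were tested. Hp and Dio2 averaged less than 1 FPKM in WT hearts, so that they passed the filter only through the Cfp1-cKO libraries, where they are high. The 10 lower after scaling were Prdx2, Prdx5, Sesn1, Chac2, Gsta4, Gstk1, Glrx5, Fth1, Alas1 and Msrb1, of which those outside the naming rule were named after their values were seen. Without scaling, 9 genes were called without Cfp1-cKO replicate 2, 13 without Cfp1-cKO replicate 3 and 7 without WT replicate 1.

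Regulators of Nrf2 had a median log2 fold change of 0.07. Of 9 tested genes 1 was called, Nfe2l1, a relative of Nrf2, at 52.9, 51.8 and 56.0 FPKM in Cfp1-cKO hearts, against 32.2, 28.1 and 42.0 FPKM in WT hearts (limma log2 fold change 0.66, adjusted p = 0.0322, and 0.22 with adjusted p = 0.439 after scaling). Nfe2l2 was at 0.33 on the log2 scale (adjusted p = 0.16 in limma) and Keap1 at 0.07 (adjusted p = 0.775 in limma). Both were named after their values were seen. Of 13 tested other targets of Nrf2, 5 were called higher and none lower, or 38.5% against 21.1% of all tested genes higher, with a median of 0.41. Akr1b8, an aldo-keto reductase, had 6.64, 7.68 and 7.30 FPKM in Cfp1-cKO hearts, against 2.32, 1.42 and 2.00 FPKM in WT hearts (limma log2 fold change 1.5, adjusted p = 0.00158), and stayed called after scaling (1.16, adjusted p = 0.00541 in limma). Ephx1, microsomal epoxide hydrolase, was at 1.03 on the log2 scale (adjusted p = 0.00535 in limma). Pgd, G6pdx and Tkt, which encode enzymes of the pentose phosphate pathway that supplies NADPH, had 0.78, 0.74 and 0.78. Ephx1, Pgd, G6pdx and Tkt were not called after scaling.

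Enzymes that make, recycle and use glutathione had calls in both directions. Of 24 tested genes 4 were higher and 2 lower, or 16.7% and 8.33%, against 21.1% and 1.68% of all tested genes, with a median of 0.17. Gclc, the catalytic subunit of the enzyme that starts glutathione synthesis, had 9.87, 11.5 and 14.6 FPKM in Cfp1-cKO hearts, against 2.68, 6.65 and 3.38 FPKM in WT hearts (limma log2 fold change 1.37, adjusted p = 0.0156). Gsr, which recycles oxidised glutathione, had 0.86 (adjusted p = 0.01 in limma), and Gstt1, a glutathione transferase, 0.80 (adjusted p = 0.0154 in limma). Gpx7, also of the glutathione peroxidase family, was the remaining higher gene (0.78, adjusted p = 0.0205 in limma). None of these 4 was called after scaling. Gstk1, a glutathione transferase of mitochondria and peroxisomes, was lower, at 10.7, 10.3 and 7.48 FPKM in Cfp1-cKO hearts, against 21.9, 20.4 and 16.5 FPKM in WT hearts (limma log2 fold change -0.98, adjusted p = 0.0124), and lower after scaling as well (-1.39, adjusted p = 0.0108 in limma). Gsta4, which detoxifies products of lipid peroxidation, was lower as well (-0.56, adjusted p = 0.0295 in limma). After scaling no gene of this list was higher and 4 were lower.

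Thioredoxin genes had 4 of 9 tested genes higher and none lower, or 44.4% against 21.1% of all tested genes, with a median of 0.49. Beside Txnrd2, these were Txndc5, a protein disulphide isomerase of the endoplasmic reticulum (0.93, adjusted p = 0.0177 in limma), Txnrd3 (0.62, adjusted p = 0.035) and Txndc17 (0.58, adjusted p = 0.0273). After scaling Txnrd2 alone was called. Among 12 genes of superoxide dismutase supply and peroxiredoxins, 2 were higher and 2 lower, 16.7% each against 21.1% and 1.68% of all tested genes, with a median of 0.37, and after scaling 3 were lower and none higher. Srxn1, which repairs overoxidised peroxiredoxins, was higher (1.14, adjusted p = 0.0255 in limma), as was Sesn2, a stress-induced sestrin (0.80, adjusted p = 0.0372 in limma). Sesn2 averaged 0.63 FPKM in WT hearts and passed the filter only through the Cfp1-cKO libraries. Prdx2, a peroxiredoxin of the cytosol, had 46.5, 45.8 and 50.3 FPKM in Cfp1-cKO hearts, against 76.7, 66.6 and 67.2 FPKM in WT hearts, and was lower without scaling (-0.55, adjusted p = 0.029 in limma) and with it (-0.99, adjusted p = 0.0116 in limma). Sesn1, another sestrin, was also lower without scaling (-1.12, adjusted p = 0.0256 in limma) and with it (-1.55, adjusted p = 0.0291 in limma), while Srxn1 and Sesn2 were not called after scaling. Without scaling, the call of Prdx2 was lost without any 1 of Cfp1-cKO replicates 1 to 3 or WT replicate 1 (adjusted p of 0.0594 to 0.115 in limma). That of Sesn1 was lost without Cfp1-cKO replicate 2, Cfp1-cKO replicate 3, WT replicate 1 or WT replicate 2 (adjusted p of 0.0511 to 0.0758 in limma). The Sesn1 call was also lost with no filter on low values (adjusted p = 0.0607 in limma) and with the replicate number as a block (adjusted p = 0.0632 in limma).

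The 10 tested mitochondrial antioxidant proteins, 9 of which are also in other lists, had 3 higher and 1 lower (against 21.1% and 1.68% of all tested genes), with a median of -0.02, and 1 higher and 3 lower after scaling. The higher ones were Txnrd2, Msra and Msrb2, and the lower one Gstk1. Methionine sulfoxide reductases and metallothioneins had 3 of 4 tested genes higher and none lower (against 21.1% of all tested genes higher), with a median of 0.72, which were Msrb3 (0.89, adjusted p = 0.0113 in limma), Msra (0.82, adjusted p = 0.012) and Msrb2 (0.62, adjusted p = 0.0403), each of which repairs oxidised methionine. None of them was called after scaling. Nnt, the mitochondrial transhydrogenase that supplies NADPH, did not reach 0.32 FPKM in any library of either genotype and was not tested. It was named after its values were seen, and the C57BL/6J strain is known to carry a deletion in this gene.

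Of 14 tested selenoproteins and genes of their synthesis 2 were higher and none lower, or 14.3% against 21.1% of all tested genes higher, with a median of 0.32. Dio2, a deiodinase that activates thyroid hormone, had 3.24, 6.16 and 2.35 FPKM in Cfp1-cKO hearts, against 0.553, 0.119 and 0.353 FPKM in WT hearts (limma log2 fold change 1.81, adjusted p = 0.00662), and stayed called after scaling. Selenon, of the endoplasmic reticulum, had 1.12 (adjusted p = 0.0308 in limma). With scaling, 1 gene of this list was higher and 1 lower. Of 12 tested genes of haem and iron handling 2 were higher and none lower, or 16.7% against the same 21.1%, with a median of 0.28, and with scaling 1 was higher and 2 lower. Hp, haptoglobin, which binds free haemoglobin, had 30.5, 11.5 and 18.5 FPKM in Cfp1-cKO hearts, against 0.384, 1.45 and 0.173 FPKM in WT hearts (limma log2 fold change 3.64, adjusted p = 0.00103). Markers of red blood cells summed to 233 to 1892 FPKM in Cfp1-cKO hearts, against 59.8 to 1007 FPKM in WT hearts, with overlap. The part of red blood cells, lung epithelium or other cell types in the values of this list was not tested.

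Sources of superoxide and hydrogen peroxide had 4 of 10 tested genes higher and none lower, where 21.1% of all tested genes were higher, with a median of 0.45. Cybb, the catalytic subunit of the phagocyte NADPH oxidase, had 1.92, 2.93 and 3.77 FPKM in Cfp1-cKO hearts, against 1.37, 1.03 and 1.26 FPKM in WT hearts (0.78, adjusted p = 0.0319 in limma). Its partners Ncf1 (0.67, adjusted p = 0.049 in limma) and Rac2 (0.74, adjusted p = 0.0298 in limma) were higher as well, as was Maoa, a monoamine oxidase that releases hydrogen peroxide (0.75, adjusted p = 0.0156 in limma). None of the 4 was called after scaling. Ncf1 and Rac2 averaged less than 1 FPKM in WT hearts and passed the filter only through the Cfp1-cKO libraries, where they are high. In the same libraries the 11 listed macrophage markers other than Lyz2 summed to 72.1 to 114 FPKM in Cfp1-cKO hearts, against 48.6 to 64.4 FPKM in WT hearts. These sums are as deposited and overlap once scaled. Lyz2, which alveolar type II cells also make, had 387, 548 and 771 FPKM in Cfp1-cKO hearts, against 42.6, 56.0 and 36.0 FPKM in WT hearts. The part of macrophages in the values of these 4 genes was not tested.

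**Figure D4:**
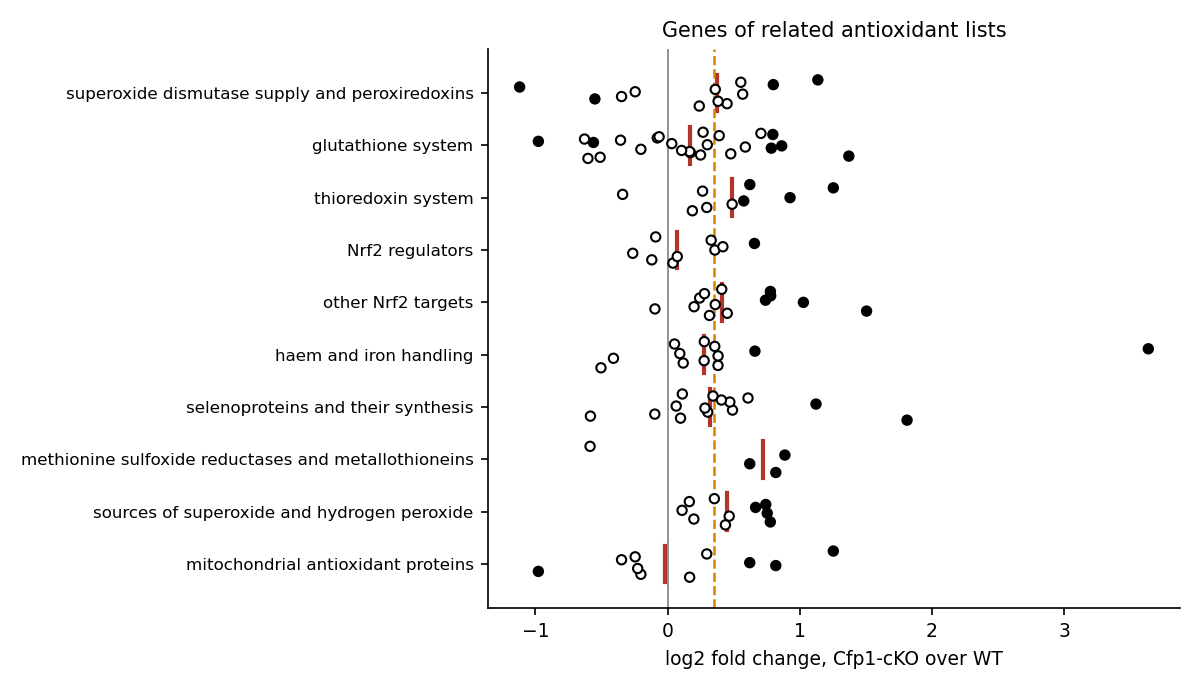
Log2 fold change of Cfp1-cKO over WT hearts (horizontal, FPKM as deposited) of the tested genes of 10 related lists (rows), 1 point per gene, filled where called, with a red bar at the median of each list and a dashed line at the median of all tested genes, 0.35. List medians run from -0.02 for mitochondrial antioxidant proteins to 0.72 for methionine sulfoxide reductases and metallothioneins.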

How the data were processed

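RNA of 3 Cfp1-cKO and 3 WT mouse hearts was measured by RNA-seq, with groups taken from the labels. The authors deposited FPKM per gene in 2 tables that were identical for all 26881 genes. The submitters' processing notes list CASAVA, TopHat2, DESeq2, Bowtie2 2.2.3, HTSeq 0.6.0, HISAT2 2.1.0 and the build GRCm38, giving no order, and the study's methods give the address of a chicken genome. FPKM are relative to a library's total, so a few abundant genes can shift all others. Fragments were worked back from the FPKM steps. With GENCODE release 21 gene lengths they were whole in all libraries, within 0.02, for 23978 genes. For 2670 other genes the shortest length that gave whole numbers was taken, so that these were whole by construction. Both kinds together made up 99.1% of genes. For Sod1 and Sod2 the length itself was worked back. Replicates differed by more than sampling noise in every pair.

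Genotypes were compared with limma 3.58.1 (R 4.3.3) on log2(FPKM + 1), letting the prior variance follow a trend, over the 11017 genes averaging at least 1 FPKM. Adjusted p (Benjamini-Hochberg) is over all of these. The procedure was run on simulated fragments in which only a chosen set of genes differed between genotypes. They held no general shift over all genes, so that they do not bear on the effect of scaling. The spread between simulated replicates was set in advance rather than taken from these libraries, and no result here rests on the simulation. The 17 alternatives covered pseudocount, filter, scaling, variance model, library weights, replicate block, threshold, limma voom on fragments and each library left out. Text names the 10 enzymes, Cxxc1, and from each list the called genes with the largest change, up to 4. G6pdx, Nfe2l2, Keap1, Nnt, Gsta4, Gpx7 and genes lower after scaling alone were added after their values were seen. Enzymes and lists were chosen with earlier results of these data known. Tables and plots were made with pandas 2.3.3, scipy 1.17.1, numpy 2.4.6 and matplotlib 3.10.9 in Python 3.11.15.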

Additional observations from a re-analysis of the deposited data

How the results depend on the processing

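Sod3 was called under all 17 alternatives, Nqo1 under 16, Gpx1 under 14 and Gpx3 under 12. Sod2 was called lower under median-of-ratios scaling only, and Sod1 with library weights (-0.57) and without WT replicate 3. Of all genes 2510 were called, 2325 higher and 185 lower, and of the related lists 31 genes, 27 higher and 4 lower. A pseudocount of 5 gave 1151 (1006 higher), with 20 related genes (16 higher). No filter gave 1609 (1518 higher, 91 lower), with 20 related genes (17 higher), and took the call of Gpx3 (adjusted p = 0.0581 from limma). A mean of at least 5 FPKM gave 1179 (1027 higher), with 19 related genes (15 higher). Median-of-ratios scaling gave 769 (411 higher, 358 lower), 2 of the 10 enzymes (1 higher, 1 lower) and 14 related genes (4 higher, 10 lower), and turned Cat to -0.15. Without mitochondrial-genome and haemoglobin genes 1559 were called (1383 higher). Library weights gave 4399 (4027 higher, 372 lower), 7 of the 10 enzymes (1 lower) and 9 related genes lower. Limma voom on recovered fragments called 2741 genes and 5 of the 10 enzymes, adding Txnrd1. The cause of these changes was not tested.

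With each library left out in turn, 588 to 2789 genes were called (538 to 2588 higher, 50 to 201 lower), 2 to 5 of the 10 enzymes (2 to 5 higher, 0 to 1 lower) and 7 to 31 related genes (7 to 25 higher, 0 to 6 lower). The fewest were called without Cfp1-cKO replicate 2 (588) and WT replicate 1 (680). Gpx4 ranged from -0.11 to 0.12 and changed sign without Cfp1-cKO replicate 3 (0.12), WT replicate 1 (0.03) or WT replicate 2 (0.03). Log2 ratio differences ranged from -0.19 to 0.56 for Sod2 to Sod1 (negative without WT replicate 2), from -0.086 to 0.41 for Gpx3 to Gpx1 (-0.083 without Cfp1-cKO replicate 3 and -0.086 without WT replicate 1), and from -0.29 to 0.22 for Hmox1 to Hmox2 (0.11 without Cfp1-cKO replicate 1 and 0.22 without WT replicate 2). They ranged from 1.82 to 3.04 for Sod3 to Sod1, from -0.92 to -0.71 for Gpx4 to Gpx1, from 0.43 to 1.16 for Cat to Sod1 and from 0.49 to 1.15 for Txnrd2 to Txnrd1.

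The replicate numbers were not taken as pairs, since deviations of same-numbered libraries correlated at 0.11, 0.04 and 0.10 across genes, although each library correlated best with its own number. With the replicate number as a block 1749 genes were called (1597 higher, 152 lower), with 4 of the 10 enzymes higher and 25 related genes (22 higher, 3 lower). Depth limits Sod3 most, with 108 fragments in its lowest library.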
